A study of Rattus norvegicus with 44 samples.

Results

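The cytosolic ribosomal protein genes encode the protein part of the ribosome that translates messenger RNA in the cytoplasm. They were taken as the genes whose single symbol in the array annotation starts with Rpl or Rps and a digit, together with Rpsa, Rplp0, Rplp1 and Rplp2, and without the Rps6k kinases, Rps19bp1 and pseudogene symbols. The annotation gave 72 such genes of 14324 genes with a single symbol, of which 27 belong to the small subunit, 42 to the large subunit and 3 to the acidic stalk of the large subunit. They were represented by 259 of the 27342 probe sets, and the brightest probe set of each gene over the first 38 arrays stood for the gene.

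Whole ovaries of 4-day-old Sprague-Dawley rats, an age at which most follicles are primordial, were kept in organ culture for 2 days, either with a growth factor added to 50 ng/ml or with nothing added. The factors of the first set of 38 arrays were AMH, BMP4 and FGF7 of human origin, FGF2, GDNF, LIF and PDGFab of rat origin and KITLG of mouse origin (3 samples each), and 14 untreated cultures served all 8 as controls. A second set of 6 arrays held 3 samples treated with human CTGF and 3 untreated controls of their own. Each sample was RNA from pooled ovaries, so that fewer cells of a type and less RNA per cell cannot be told apart, and no day of culture, RNA preparation or hybridisation is given in the labels. The deposited values are log2 levels, on which a difference of 1 is a doubling.

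Each ribosome joins a single copy of nearly every ribosomal protein to ribosomal RNA, and cells usually regulate these proteins together. Their messenger RNAs begin with a run of pyrimidines (C or U), the 5 prime terminal oligopyrimidine tract, through which growth factor and TOR kinase signalling controls their translation. In the ovary, growing oocytes accumulate ribosomes for the early embryo, and granulosa cells that begin to divide need new ones.

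The tract can be read at the annotated gene starts. RefSeq promoters of the GRCr8 build were matched by gene number for 60 of the 72 genes. The 9 starts below belong to the genes on which the results turn. Each line runs 5' to 3' over 35 bases before the start and the first 20 transcribed bases, and capitals mark runs of at least 5 C or T letters that lie near the start.
Rps3a: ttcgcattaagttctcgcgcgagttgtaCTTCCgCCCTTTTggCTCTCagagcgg
Rps23: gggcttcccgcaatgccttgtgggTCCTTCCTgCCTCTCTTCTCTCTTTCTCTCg
Rplp0: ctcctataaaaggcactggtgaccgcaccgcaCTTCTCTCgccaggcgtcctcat
Rplp1: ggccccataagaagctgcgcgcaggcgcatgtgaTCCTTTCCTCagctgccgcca
Rplp2: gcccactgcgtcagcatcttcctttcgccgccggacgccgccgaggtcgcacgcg
Rpl10: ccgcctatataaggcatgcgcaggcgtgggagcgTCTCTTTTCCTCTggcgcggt
Rpl10a: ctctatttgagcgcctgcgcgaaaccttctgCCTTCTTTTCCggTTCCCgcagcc
Rps16: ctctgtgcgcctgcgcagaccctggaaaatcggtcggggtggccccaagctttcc
Rpl23: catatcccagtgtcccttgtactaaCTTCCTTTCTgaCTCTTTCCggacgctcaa

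These stretches lie at chr2:173827023-173827077 on the minus strand (Rps3a), chr2:23814482-23814536 on the plus strand (Rps23), chr12:46718371-46718425 minus (Rplp0), chr8:71290853-71290907 minus (Rplp1), chr1:205975886-205975940 plus (Rplp2), chrX:157205815-157205869 plus (Rpl10), chr20:6390498-6390552 plus (Rpl10a), chr1:92770623-92770677 plus (Rps16) and chr10:83272165-83272219 minus (Rpl23). A C at the first transcribed base followed by 4 further pyrimidines stood at 23 of the 60 starts (38.3%), against 2.63% of all 33469 promoters of the table. The letters CTTTC occurred from 10 bases before to 12 bases after the start in 31.7% of the members and 2.45% of all promoters, and their reverse complement GAAAG in 1.67% of the members and 2.73% of all. Rplp2 and Rps16 showed no such run at the annotated start, although CTTTC lies upstream of it in Rplp2. CCGGAA or its reverse complement TTCCGG, the core letters recognised by ETS factors such as GABP, was present in the 300 bases of 51.7% of the members and 15.0% of all promoters. The second form can overlap a tract that ends in CTTCC. A match describes the letters only.

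All 72 genes were measured above the median level of all probe sets. Their mean levels over the 38 arrays lay between 7.00 (Rps27) and 13.08 (Rpl30), with a median of 11.61, against a median of 5.98 for all probe sets. These levels also depend on the probes and set no order of abundance between genes. The oocyte markers Gdf9 and Zp3 (means of 9.85 and 11.22 over the 14 controls) and the stromal collagen gene Col1a1 (11.70) were well above that median. Of the 4 measured theca and steroidogenic genes, Star (6.85) was above it. Lhcgr (5.93), Cyp17a1 (5.28) and Cyp11a1 (4.42) were below it. Array medians over all probe sets lay between 5.93 and 6.01 in the first set and between 6.29 and 6.35 in the CTGF set, so that the 2 sets were not compared.

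Among untreated ovaries the ribosomal protein genes varied unequally. The SD over the 14 controls had a median of 0.16 for the 72 genes, close to the 0.15 of other probe sets with a mean level above 11, and was 0.20 for all probe sets. The steadiest were Rps4x, the X-linked form of a small subunit protein (SD 0.05), and Rpl4, Rpl21, Rps2 and Rpl28 (0.05 to 0.08). The most variable were Rps27, Rps15, Rps21, Rpl36 and Rpl10a, with SDs of 0.59, 0.46, 0.34, 0.31 and 0.30. Rps27 had a lowest level of 5.85 in control 12, a median of 7.13 and a highest level of 7.93 in control 3. Of the 2556 pairs of members, 80.8% had a positive correlation over the controls, with a median of 0.36; the points of each pair share arrays and their normalization.

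Rps3a, a small subunit protein that lies where messenger RNA leaves the ribosome, was the only member with an adjusted p under 0.05 in more than 1 comparison. Its levels were 12.19, 12.16 and 12.17 in the PDGFab samples, against a lowest of 12.26, a median of 12.60 and a highest of 12.72 in the controls. All 3 PDGFab samples were below every control. The difference was -0.40 ± 0.09 (SE; limma, adjusted p = 0.0369), and the exact two-sided permutation test gave p = 0.00147, the smallest that 680 splits of 3 against 14 can give. In the FGF2 samples Rps3a stood at 12.31, 12.19 and 12.17. The first of them lay above the lowest control, and the difference was -0.35 ± 0.09 (adjusted p = 0.0413, permutation p = 0.00294). A single probe set represents this gene.

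The adjusted p of Rps3a was 0.0535 with FGF7 (difference -0.40), 0.0568 with BMP4 (-0.37), 0.12 with LIF (-0.33), 0.141 with KITLG (-0.34) and 0.946 with AMH (-0.23). The 3 FGF7 samples (12.19, 12.17 and 12.16) and the 3 BMP4 samples (12.24, 12.16 and 12.22) were also below all controls. The AMH samples stood apart from each other at 12.29, 12.10 and 12.65. The GDNF samples, at 12.47, 12.53 and 12.51, lay inside the range of the controls (difference -0.07, adjusted p = 0.72). Rps3a was lower at an unadjusted p under 0.05 in all 7 comparisons other than GDNF, as were 0.219% of all probe sets. These 8 comparisons share the same 14 controls, so their values are not independent of each other. Neither call of Rps3a passed without controls 12, 13 and 14, without control 3, without control 7, without any single sample of the factor, or with each factor fitted with the controls alone. The FGF2 call was also lost without control 4, 6, 8 or 13.

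**Figure D1:**
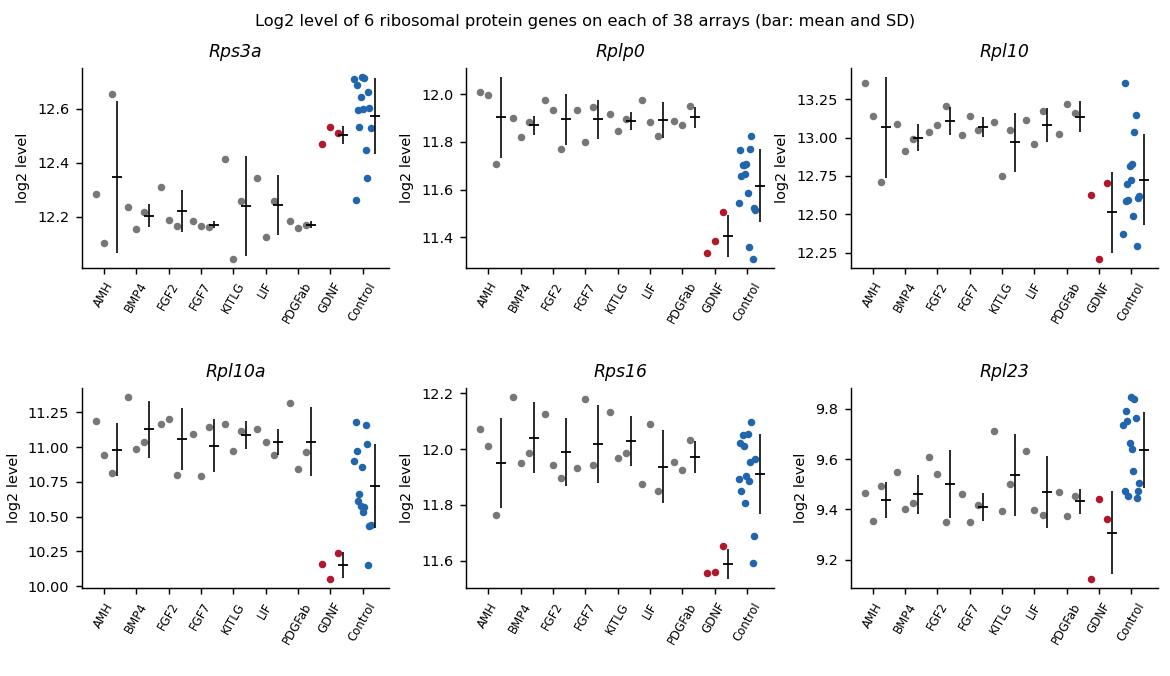
Log2 level of Rps3a, Rplp0, Rpl10, Rpl10a, Rps16 and Rpl23 on each of the 38 arrays of the first set, by group; grey points are the 7 other growth factors, red points GDNF and blue points the 14 controls, and the bar beside each group is its mean with the SD. For Rps3a the PDGFab, FGF7 and BMP4 points lie below all controls, and for Rpl10a the 3 GDNF points (10.05 to 10.24) lie at the bottom of the control range.

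Of the 9 comparisons, GDNF had the most ribosomal protein genes called. Rpl10a, a large subunit protein of the L1 stalk through which used transfer RNA leaves, stood at 10.16, 10.05 and 10.24 in the GDNF samples, against a lowest of 10.15, a median of 10.64 and a highest of 11.18 in the controls. The GDNF samples shared the low end of the range with control 12 alone. The difference was -0.57 ± 0.15 (SE; limma, adjusted p = 0.0396; permutation p = 0.00735). Rps16, a small subunit protein near the decoding site, stood at 11.56, 11.56 and 11.65 with GDNF and between 11.59 and 12.10 in the controls (median 11.93). Controls 12 and 13 (11.59 and 11.69) were the lowest of the 14, and only control 12 fell within the GDNF range. The difference of Rps16 was -0.32 ± 0.09 (adjusted p = 0.04; permutation p = 0.00294). Rpl23, a large subunit protein that can also bind the p53 regulator Mdm2, stood at 9.12, 9.44 and 9.36 with GDNF, against 9.44 to 9.85 in the controls (median 9.65). All 3 GDNF samples were below every control, the second of them by under 0.01. The difference was -0.33 ± 0.09 (adjusted p = 0.0411; permutation p = 0.00147).

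These were 3 of the 72 members (4.17%), all lower, where 1.89% of all probe sets passed the adjusted threshold with GDNF. At an unadjusted p under 0.05, 28 members (38.9%) were lower and 0 higher, while 5.69% of all probe sets were lower and 11.4% higher. The median difference of the 72 was -0.17, against 0.04 for all probe sets and -0.02 for the 499 probe sets of other genes with a mean level above 11. Of the 72 differences 67 were negative, the extremes being Rps27 (-0.78, adjusted p = 0.151) and Rps26 (0.08, adjusted p = 0.7). The median was -0.17 for the small subunit, -0.14 for the large subunit and -0.30 for the stalk.

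The count with GDNF moved with single arrays. It was 14 without control 12, where 8.46% of all probe sets passed. It was 0 without control 7 (1.32% of all), control 11 (1.39%), GDNF sample 1 (0.216%) or GDNF sample 2 (0.373%). It was 1 without control 3 (1.39%), 4 (1.39%), 8 (1.38%) or 10 (1.53%) or GDNF sample 3 (0.907%). The member called without GDNF sample 3 was none of these 3. Without control 1, 5 or 6 the count was 2 (1.83%, 1.42% and 1.48% of all probe sets), and without control 13 it was 4 (2.14%). It was also 0 after repeated quantile normalization (0.592% of all), and 22 with array quality weights, where 20.6% of all probe sets passed. Without controls 12, 13 and 14 it was 20, where 11.5% of all probe sets passed. On single levels, 4 of the 72 members (5.56%) had all GDNF samples below all controls, against 0.326% of all probe sets.

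Members with more than 1 probe set were also read by probe set. These probe sets share the same arrays and are not independent measurements. Some probe sets of Rps10 even had the same mean level over the 38 arrays (9.8473), as had some of Rps20 (12.1147). All 4 probe sets of Rpl10a had an adjusted p under 0.05 with GDNF, with differences between -0.58 and -0.42. Of the 7 probe sets of Rpl31, which lies at the exit of the large subunit tunnel, 1 was called (11.21, 11.31 and 11.37 with GDNF against a control mean of 11.90 ± 0.31, SD; difference -0.60, adjusted p = 0.0312). The brightest of them was not (-0.40, adjusted p = 0.111), and the differences of all 7 were negative. Up to 21 probe sets carried the symbol of 1 gene (Rpl21). Ribosomal protein genes are known for many near-identical processed copies in mammalian genomes, and whether these probe sets also match such copies was not tested.

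In the 7 comparisons other than GDNF the members went in both directions. With FGF2, 1 of the 72 passed the adjusted threshold (1.39%, against 0.94% of all probe sets), and 7 were lower and 8 higher at an unadjusted p under 0.05, where 4.82% of all probe sets were lower and 7.35% higher. With PDGFab, 1 passed (1.39%, against 0.234%), and 11 were lower and 10 higher, where 3.57% and 6.22% of all probe sets were lower and higher. In both cases the member was Rps3a. With array quality weights PDGFab had 12 members called, where 4.13% of all probe sets passed, and FGF2 had 3 (1.24%). The FGF2 count was 2 without control 2 (1.14% of all probe sets). The median difference of the 72 was -0.02 with FGF2 and -0.05 with PDGFab, with all probe sets at -0.01 in each.

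With BMP4 no member passed (0.274% of all probe sets did), and at an unadjusted p under 0.05 there were 11 lower (15.3%, against 4.51% of all probe sets) and 7 higher (9.72%, against 4.45%). With FGF7, 0 members and 0.0805% of all probe sets passed, with 14 members lower (19.4%, against 3.97%) and 4 higher (5.56%, against 3.6%). With KITLG, 0 members and 0.0439% of all probe sets passed, with 7 members lower (9.72%, against 4.31%) and 5 higher (6.94%, against 4.35%). With LIF, 0 members and 0.267% of all probe sets passed, with 6 members lower (8.33%, against 2.98%) and 6 higher (8.33%, against 4.27%). With AMH, 0 members and 0% of all probe sets passed, with 2 members lower (2.78%, against 2.19%) and 7 higher (9.72%, against 2.88%). These counts come from limma. Without control 2 the count was 1 with BMP4 (0.571% of all probe sets), 1 with FGF7 (0.252%) and 2 with LIF (0.315%). Without control 11 it was 1 with BMP4 (0.249%) and 1 with FGF7 (0.0805%). With array quality weights the count was 15 with BMP4 (4.57% of all probe sets), 10 with FGF7 (4.24%), 7 with KITLG (1.99%) and 2 with LIF (0.878%). The median differences of the members were small, between -0.06 (FGF7) and 0.04 (AMH).

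**Figure D2:**
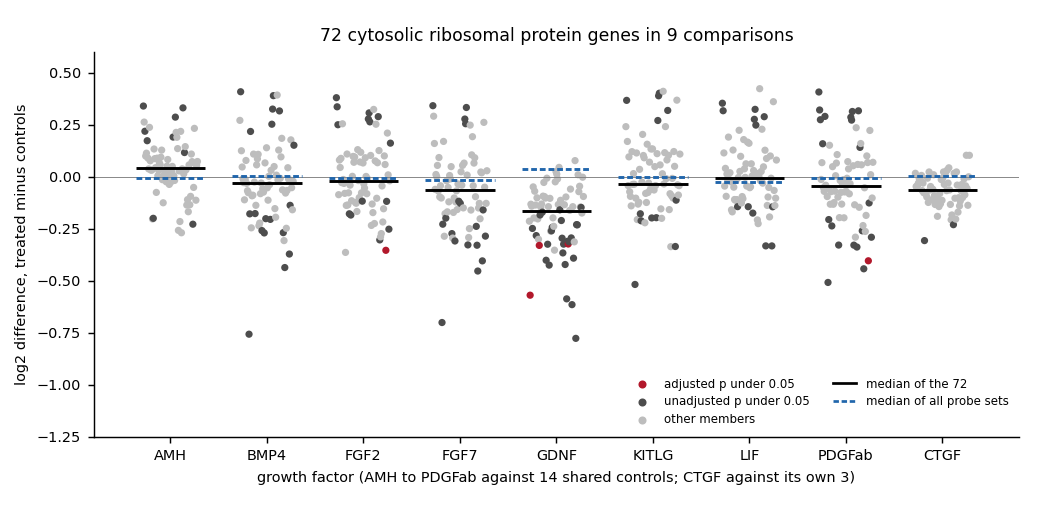
Log2 difference (treated minus controls) of each of the 72 genes in the 9 comparisons; red points have an adjusted p under 0.05, dark points an unadjusted p under 0.05, the black line is the median of the 72 and the blue dashed line that of all 27342 probe sets. The GDNF median lies at -0.17, and the other 8 medians lie between -0.06 and 0.04.

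The stalk proteins Rplp0, Rplp1 and Rplp2, which recruit the elongation factors to the ribosome, had positive differences in these 7 comparisons. Rplp0 stood at 11.89, 11.87 and 11.95 in the PDGFab samples and at 11.92, 11.84 and 11.90 in the KITLG samples, against a lowest of 11.31, a median of 11.66 and a highest of 11.82 in the controls. Both groups lay entirely above the controls. The differences were 0.29 ± 0.08 with PDGFab (adjusted p = 0.118) and 0.27 ± 0.08 with KITLG (adjusted p = 0.229). Rplp0 had an unadjusted p of at most 0.00386 in each of the 7 comparisons, with differences between 0.25 and 0.29, and an adjusted p of at least 0.0928. The 7 comparisons share their controls, so these are not separate observations. On the higher side in all 7 were 1 member (1.39%) and 0.168% of all probe sets.

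Rplp1 and Rplp2 each had an unadjusted p under 0.05 in 6 of the 7, where 0.479% of all probe sets were higher in at least 6. The KITLG samples held 13.19, 13.04 and 13.01 for Rplp1, against 12.36 to 13.07 in the controls (median 12.66). The highest control, number 10, lay within the KITLG range (difference 0.39 ± 0.11, adjusted p = 0.181). Rplp2 stood at 11.73, 11.71 and 11.73 with KITLG, against 11.03 to 11.74 in the controls (median 11.27), and 1 control was higher (difference 0.40 ± 0.12, adjusted p = 0.199). None of these passed the adjusted threshold.

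With GDNF the stalk genes had differences of the other sign. Rplp0 was at 11.33, 11.38 and 11.50 (difference -0.21 ± 0.08, adjusted p = 0.17), Rplp1 at 12.37, 12.40 and 12.42 (-0.30 ± 0.11, adjusted p = 0.151) and Rplp2 between 10.86 and 11.01 (-0.37 ± 0.12, adjusted p = 0.0915). The 3 values of Rplp2 were below every control, while those of Rplp0 and Rplp1 lay in the lower part of the control range. The dimmer probe set of Rplp0 differed by only -0.03 with GDNF.

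Rpl10, a large subunit protein that is added late in the assembly of the subunit, and Rpl10a had an unadjusted p under 0.05 in 5 of the 7 comparisons, on the higher side, as 0.947% of all probe sets had in at least 5. Rpl10 stood at 13.02, 13.22 and 13.16 with PDGFab, against 12.30 to 13.36 in the controls (median 12.66), with controls 2, 10 and 11 (13.36, 13.04 and 13.15) above the lowest PDGFab sample (difference 0.41 ± 0.15, adjusted p = 0.276). Rpl10a had differences between 0.26 and 0.41 over the 7, against -0.57 with GDNF.

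On the lower side, Rps4x had an unadjusted p under 0.05 in 6 of the 7 comparisons, as 0.516% of all probe sets had in at least 6, and Rps23, a decoding site protein, and Rpl4 in 5, as 1.02% of all probe sets had on that side in at least 5. Rps23 stood at 11.45, 11.44 and 11.43 with LIF, against 11.57 to 11.97 in the controls (median 11.72). All LIF samples were below the controls (difference -0.33 ± 0.08, adjusted p = 0.0799; permutation p = 0.00147). Members with all treated samples below all controls numbered 5 with FGF7 (6.94%, against 0.6% of all probe sets), 3 with BMP4 (4.17%, against 0.625%), 2 with LIF (2.78%, against 0.19%), 2 with PDGFab (2.78%, against 0.355%) and 1 with KITLG (1.39%, against 0.347%). Above all controls was 1 member each with PDGFab (against 0.618% of all probe sets) and KITLG (against 0.307%), Rplp0 in both. The differences of Rps4x were small, between -0.16 and -0.05, beside its control SD of 0.05.

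**Figure D3:**
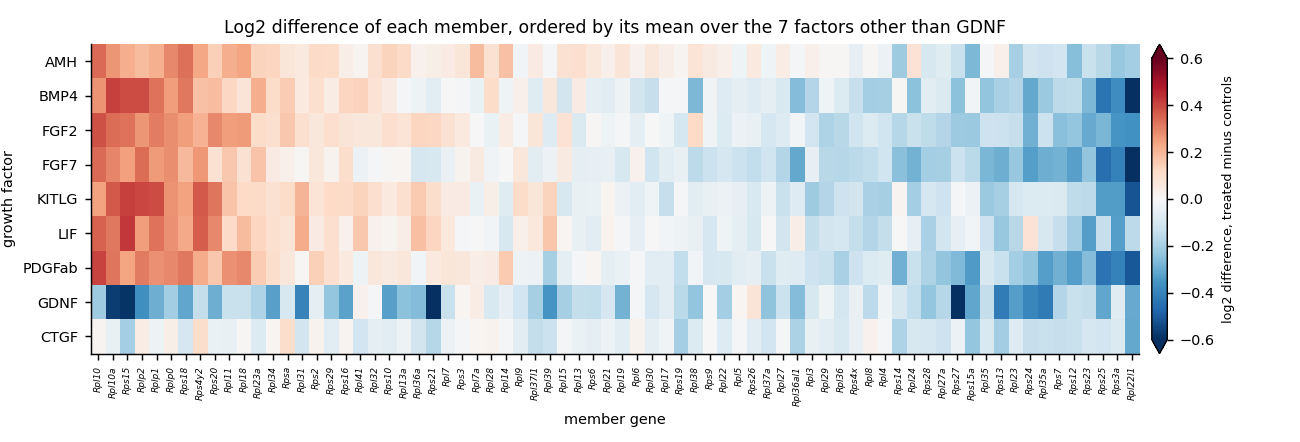
Log2 difference (treated minus controls) of the 72 members (columns, ordered by their mean over the 7 factors other than GDNF) in the 9 comparisons (rows), with red above and blue below the controls. At the left, Rpl10, Rpl10a and the stalk genes are red in the upper 7 rows and blue with GDNF; at the right, Rps3a and Rpl22l1 are blue in those 7 rows.

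The placing of single arrays follows the same genes. The first axis of a principal component decomposition of the 72 genes over the 38 arrays held 49.1% of the variance, with 67 of the 72 genes on its positive side, led by Rps27, Rps15 and Rps21. The second held 23.4%, with Rpl10, Rpl10a, Rps15, Rps4y2 and Rplp2 on its positive side and Rpl22l1, Rps3a and Rps25 on its negative side. On the second axis 20 of the 21 arrays of the 7 factors other than GDNF lay between 0.06 and 1.18. The 3 GDNF arrays lay between -1.32 and -0.80. Of the 14 controls, 11 lay between -1.67 and -0.53.

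The exceptions were AMH sample 3, at -0.97 among the controls, and controls 2, 10 and 11, at 0.28, 0.03 and 0.22, on the side of the treated arrays. AMH sample 3 had 12.65 for Rps3a and 11.71 for Rplp0, both within the range of the controls. Controls 2, 10 and 11 had the lowest Rps3a levels of the controls (12.26, 12.45 and 12.34) and the highest Rplp0 levels (11.77, 11.77 and 11.82). On the first axis the GDNF arrays lay between -2.29 and -1.52 and controls 12, 13 and 14 at -2.15, -0.66 and -1.05. The positions are a description of these arrays and carry no test. Whether arrays that lie together share a day of culture or of hybridisation was not tested.

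**Figure D4:**
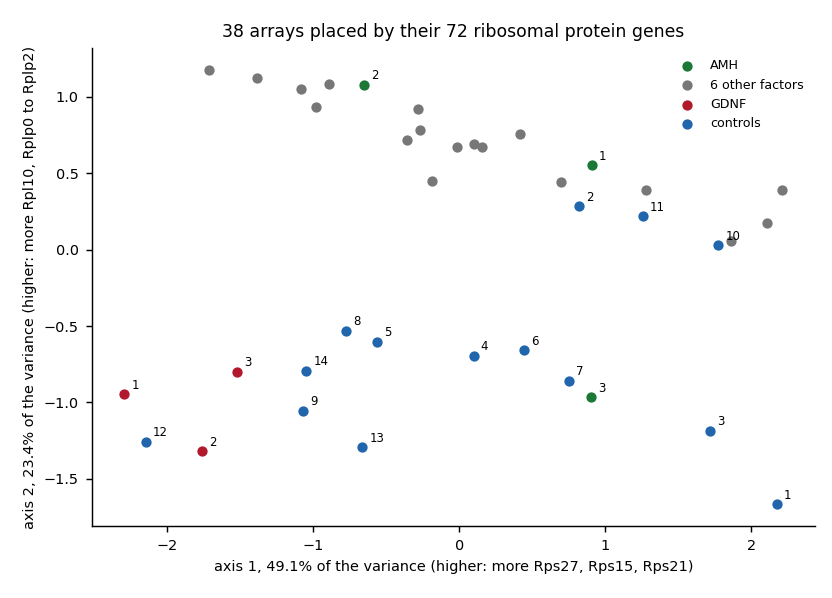
The 38 arrays of the first set on the first axis (horizontal, 49.1% of the variance, scores in log2 units) and the second axis (vertical, 23.4%) of the 72 ribosomal protein genes; numbers are the replicates of AMH (green), GDNF (red) and the controls (blue), and grey points are the 6 other factors. Controls 2, 10 and 11 lie just above 0 on the vertical axis, with the treated arrays, and AMH 3 lies below it, with the other 11 controls and GDNF.

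GDNF was also set against the mean of the other 7 growth factors, in the fit of all 38 arrays. The control arrays do not enter the difference but do enter its SE. This comparison was chosen after the values had been seen. With it 18 of the 72 members (25%) had an adjusted p under 0.05 (17 lower and 1 higher), against 11.7% of all probe sets. Rpl10a averaged 10.15 ± 0.09 in the GDNF samples (SD, n = 3) and 11.05 ± 0.16 in the 21 samples of the other factors, a difference of -0.90 ± 0.14 (SE; limma, adjusted p = 0.000277). Its highest GDNF value was 10.24 and its lowest value among the 21 was 10.79. Rplp0 averaged 11.41 ± 0.09 with GDNF and 11.89 ± 0.08 with the others (difference -0.49, adjusted p = 0.000295), Rplp2 10.96 ± 0.08 and 11.63 ± 0.14 (-0.67, adjusted p = 0.000386) and Rplp1 12.40 ± 0.03 and 12.99 ± 0.12 (-0.59, adjusted p = 0.000775). The dimmer probe set of Rplp0 differed by -0.25 (limma, adjusted p = 0.0154). For the brightest probe sets of these 3 stalk genes all GDNF samples were below all 21 others. So they were for 18 of the 72 members (25%) and 2.86% of all probe sets. The other members that were lower included Rps16 (-0.40, adjusted p = 0.00233), Rps20 (-0.51, adjusted p = 0.00387), Rps15 (-0.91, adjusted p = 0.00704) and Rpl10 (-0.55, adjusted p = 0.0114). Rps3a was the one that was higher (0.28, adjusted p = 0.0325), with AMH sample 3 above the GDNF samples. The count was 8 without GDNF sample 2 (4.37% of all probe sets) and 10 without GDNF sample 1 (3.41%). Fitted on the 24 growth factor arrays without the controls it was 21, where 19.3% of all probe sets passed.

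Paralogous members were read beside their relatives. Rpl22l1, a paralog of the large subunit protein Rpl22, stood at 8.27, 8.33 and 8.46 with FGF7, against 8.60 to 9.68 in the controls (median 9.06). All FGF7 samples were below the controls (difference -0.70 ± 0.22, adjusted p = 0.258; permutation p = 0.00147). With BMP4 the samples held 8.70, 7.98 and 8.22 (difference -0.76 ± 0.22, adjusted p = 0.156), of which the first lay within the control range. Rpl22 itself differed by -0.10 with FGF7 (adjusted p = 0.904) and by -0.08 with BMP4 (adjusted p = 0.934). The difference between the paralogs was not tested.

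Rps4y2, a relative of Rps4x, ranged from 7.84 to 8.72 in the controls and had differences between 0.18 and 0.37 over the 7 factors other than GDNF, none with an unadjusted p under 0.05. Rpl36al1 and Rpl36a differed by -0.31 and -0.10 with FGF7 (adjusted p = 0.533 and 0.919) and both by -0.26 with GDNF (adjusted p = 0.29 and 0.374). Rpl37l1 differed by -0.20 with GDNF (adjusted p = 0.381). Rpsa, which is also the cell surface receptor for laminin, had differences between 0.03 and 0.16 over the 7 factors and -0.09 with GDNF, none with an adjusted p under 0.05.

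With CTGF, 0 of the 72 members and 0% of all probe sets had an adjusted p under 0.05 in limma. The fit and permutations given here were unpaired, although replicate numbers paired these samples. At an unadjusted p under 0.05, 2 members were lower (2.78%, against 1.79% of all probe sets) and 0 higher (1.33% of all). They were Rpl22l1 and Rps15a, a small subunit protein. Rpl22l1 stood at 9.42, 9.42 and 9.47 with CTGF and averaged 9.74 ± 0.21 in the 3 controls of that set (difference -0.31, adjusted p = 1). Rps15a stood at 11.09, 11.08 and 11.16 with CTGF and averaged 11.34 ± 0.08 in those controls (difference -0.23, adjusted p = 1). Both genes had their CTGF samples below all controls, as had 5 members in all (6.94%, against 4.54% of all probe sets), and the permutation p was 0.1 for each, the smallest that 20 splits of 3 against 3 can give. The median difference of the 72 was -0.06, against 0.00 for all probe sets. Rps3a differed by -0.09 and Rplp0 by 0.03 (adjusted p = 1 for both).

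The other genes of translation gave few calls. Of 15 measured genes whose messenger RNAs are known from other mammals to carry the pyrimidine tract, Eif3e, a subunit of the initiation factor that binds the small ribosomal subunit, was the one called. It averaged 10.70 ± 0.07 with FGF7, 10.79 ± 0.32 with FGF2 and 10.77 ± 0.05 with PDGFab, against 11.26 ± 0.15 in the 14 controls (SD). The differences were -0.56 (adjusted p = 0.0237), -0.47 (adjusted p = 0.0251) and -0.49 (adjusted p = 0.0384). The difference of Eif3e was -0.48 with KITLG (adjusted p = 0.0879) and -0.46 with BMP4 (adjusted p = 0.0524). It was -0.34 with LIF (adjusted p = 0.264) and -0.33 with AMH (adjusted p = 0.782). These comparisons share the 14 controls, so they are not separate observations. With GDNF the largest difference of this list was that of Eef1b2, an exchange factor of translation elongation, at -0.80 (adjusted p = 0.0614), with a median of -0.03 over the list.

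Of 28 initiation factors, Eif6, which keeps free large subunits from joining small ones, was higher with FGF2 (9.03 ± 0.15 against 8.70 ± 0.11 in the controls; difference 0.33, adjusted p = 0.0341). Of 37 ribosome assembly genes, Utp3 was lower with BMP4 (7.53 ± 0.04 against 7.89 ± 0.15; difference -0.36, adjusted p = 0.041). At an unadjusted p under 0.05, 9 assembly genes were lower and 0 higher with BMP4 (median -0.09), 8 lower and 2 higher with FGF7 (median -0.04), 8 lower and 1 higher with KITLG (median -0.08), 7 lower and 3 higher with FGF2 (median -0.02) and 2 lower and 3 higher with GDNF (median 0.06). Of all probe sets 4.51% were lower with BMP4, 3.97% with FGF7, 4.31% with KITLG, 4.82% with FGF2 and 5.69% with GDNF. None of 14 genes of TOR and S6 kinase signalling and none of 6 p53 target and regulator genes had an adjusted p under 0.05 in any of the 9 limma comparisons, and at most 1 gene of each list had an unadjusted p under 0.05 in a comparison. Fau encodes a ubiquitin-like protein fused to the small subunit protein S30. Over the 7 factors other than GDNF its differences lay between 0.27 (FGF7) and 0.42 (PDGFab), with adjusted p of at least 0.204. With GDNF Fau was at -0.18 (adjusted p = 0.527).

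Members whose first transcribed base was a C opening a pyrimidine run, as counted above, were also set beside the other matched members. With GDNF the median difference was -0.21 for the 23 with such a start and -0.15 for the 37 without. With FGF7 the medians were -0.03 and -0.10, with BMP4 0.01 and -0.05, and with CTGF -0.07 and -0.06. The 37 include Rps23 and Rps10, in which a pyrimidine run spans the annotated start with a T at that base. The medians therefore compare annotated first bases and cannot tell members with a tract from those lacking one. They are a description without a test.

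Markers of the cell types of the ovary were examined beside these results. None of the oocyte (8 measured), granulosa (7), theca (4), stroma (6), surface epithelium (4), endothelium (3), macrophage (5), mast cell (4) or red cell (3) markers had an adjusted p under 0.05 in any limma comparison, and at most 4 of a list had an unadjusted p under 0.05 in the same direction (stroma with PDGFab, higher). With GDNF the median difference was 0.26 for the oocyte markers, 0.02 for the granulosa markers and -0.02 for the stromal markers. Some marker medians were larger in size with other factors. With FGF7 the median was 0.59 for the granulosa markers and 0.32 for the oocyte markers. With FGF2 these medians were -0.35 and -0.34. The mast cell median was 0.62 with KITLG, and the stromal median was 0.29 with PDGFab. The part of the cell composition in the differences of the ribosomal protein genes was not tested.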

How the data were processed

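Values for 44 Affymetrix rat whole-transcript arrays were used as deposited. The authors had made them from the scans with RMA, adjusted for GC content, in Partek software, as log2 levels, separately for the 2 sets. Genes were named from the platform annotation, and 71 of the 72 members were matched by gene number to RefSeq of GRCr8. The members, gene lists and tests were chosen with earlier results of these data known. The study states fewer GDNF replicates than the labels; all 3 labelled arrays were used.

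Treated samples were set against their controls in limma 3.58.1 (lmFit, eBayes) under R 4.3.3. The 38 arrays were fitted together and the 6 CTGF arrays apart, without a block. P-values were adjusted over all 27342 probe sets (Benjamini-Hochberg, threshold 0.05). They weigh each difference against the spread between pooled samples within groups, estimated over all groups of a fit. The number of samples limits the precision. Exact two-sided permutation tests used 680 splits (3 against 14) or 20 (3 against 3). The script was tested on simulated data, where 8% of log2 changes of 0.5 were recovered in the CTGF set and 60% with GDNF. No 2 arrays held identical values.

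Replicate numbers paired the samples in the CTGF set (same-numbered arrays deviated together, r = 0.842, 0.623 and 0.647). In the first set the numbers did not pair throughout. There r with the same-numbered control ran from -0.555 (AMH sample 2) to 0.74 (FGF2 sample 1). It was also 0.694 for LIF sample 1 and 0.615 for KITLG sample 1. Genes named were those called, the 3 smallest p-values and the most extreme differences of each comparison, the brightest and dimmest, the steadiest and most variable, the stalk genes, Rpsa and paralogs; a few others are named for the patterns. Alternatives were a block, array weights, a variance trend, repeated quantile normalization, median centring, leaving out dim probe sets, gene means, a t-test on log2 values and leaving out arrays. The study's own criteria, a t-test p with limits on fold change and mean difference, were not applied. Each control left out in turn and GDNF against the other 7 factors (each array left out, or no controls in the fit) were added after seeing the data.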

Additional observations from a re-analysis of the deposited data

Results flagged for a closer look

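The difference of GDNF from the mean of the other 7 growth factors was tested itself. It was past the adjusted threshold for 18 members (25%, 17 lower and 1 higher), against 11.7% of all probe sets. Among the lower ones were Rpl10a (-0.90), Rplp0 (-0.49) and Rplp2 (-0.67). This comparison was chosen after the values had been seen. No group held between 4 and 10 samples, so no sample was tested as standing apart from its group.

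Of the 187 probe sets of member genes that were not the brightest of their gene, 4 (2.14%) had an adjusted p under 0.05 with GDNF, 3 of Rpl10a and 1 of Rpl31. All 4 were lower. This share is close to the 1.89% of all probe sets called with GDNF.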

How the results depend on the processing

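Median differences near 0 changed sign, that of AMH with the replicate block (-0.05), those of BMP4, FGF2 and KITLG without 1 of their own samples (highest values 0.03, 0.05 and 0.07) and that of LIF in 6 of 22 alternatives (highest value 0.03). The cause of the changes was not tested. With array quality weights 15 members were called for BMP4, 3 for FGF2, 10 for FGF7, 22 for GDNF, 7 for KITLG, 2 for LIF and 12 for PDGFab, while between 0.878% (LIF) and 20.6% (GDNF) of all probe sets passed in these comparisons. A variance trend with robust fitting gave 1 for BMP4 (0.219% of all probe sets) and 1 for FGF7 (0.0731%). Repeated quantile normalization gave 3 for FGF2 (1.19% of all probe sets), 1 for LIF (0.322%) and 0 for GDNF (0.592%). The median difference with GDNF was then -0.10. Without the dimmest 25% of probe sets GDNF had 0 (0.824% of the probe sets kept). With each factor fitted with the controls alone FGF2, GDNF and PDGFab had 0 (0.128%, 0.0183% and 0% of all probe sets). With a t-test on log2 values (Benjamini-Hochberg) they also had 0 (0.0475%, 0.0585% and 0%), while BMP4 had 1 (0.0256%). Without controls 12, 13 and 14 FGF2 and PDGFab had 0 (0.936% and 0.347% of all probe sets) and GDNF had 20 (11.5%).

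A block by replicate number leaves only controls 1 to 3 in the first set. With it 2 members were called for FGF7 (0.958% of all probe sets), 23 for GDNF (6.31%) and 0 for FGF2 (0.457%) and PDGFab (0.238%). The median difference was then -0.18 for FGF7, -0.28 for GDNF and -0.14 for PDGFab. Same-numbered arrays of that set did not deviate together throughout, so this is no paired analysis. In the paired CTGF set the block left the count at 0.

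Leaving out 1 array at a time gave 0 to 1 members for BMP4, FGF7 and PDGFab and 0 to 2 for FGF2 and LIF. It gave 0 to 14 for GDNF and 0 for AMH, KITLG and CTGF. The share of all probe sets called reached 0.571% for BMP4, 0.252% for FGF7, 0.527% for PDGFab, 1.43% for FGF2 and 0.34% for LIF. With GDNF this share ran from 0.216% to 8.46%. For GDNF minus the mean of the other 7 factors each of the 38 arrays was left out, which gave 8 to 19. Between 3.41% and 15.9% of all probe sets passed in these fits. The differences of Rps3a with FGF2 and PDGFab, and of Rpl10a, Rps16 and Rpl23 with GDNF, kept their sign in all 27 alternatives each. These alternatives reuse most of the same arrays. Of the 27, the call was lost in 13 for Rps3a with FGF2 and in 9 with PDGFab. With GDNF it was lost in 10 for Rpl10a, 13 for Rps16 and 15 for Rpl23. The number of arrays limits what can be told, since 3 treated samples stand in each comparison.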
